A study of Mus musculus with 4 samples.

Results

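The genes described here encode the core of the spliceosome and the heterogeneous nuclear ribonucleoproteins (hnRNPs), in 4 primary mouse neuroblastomas. They were chosen by gene symbol alone, from the families Srsf, Hnrnp, Sf3a, Sf3b, Snrp, U2af, Prpf and Lsm, and 75 of the 22180 genes on the array qualified. The 4 tumours form 1 group and were measured on 1 array each. Every tumour carries the genotype Alk mutant, TH-MYCN, Stat6-/-, on a background of C57BL\6 crossed with 129Sv/J. The series concerns STAT6, which acts downstream of the IL-4 receptor and drives macrophage polarization. TH-MYCN mice carry human MYCN under a tyrosine hydroxylase promoter, so the transgene is active in catecholamine-producing cells of the sympathetic lineage. All 4 tumours share the mutant Alk receptor kinase, the transgene and the loss of Stat6, and no Stat6-competent tumour was analysed here. The labels name a neck muscle as the tissue and give neither the age nor the sex of the animals. Nothing states that the tumours came from separate animals, so the spread given below is that between these 4 samples.

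The spliceosome removes introns from pre-mRNA. Small nuclear ribonucleoproteins (snRNPs), each built on a small nuclear RNA inside a ring of Sm or LSM proteins, recognise the splice sites and assemble stepwise on the transcript. U1 binds the donor site, the U2AF heterodimer and the SF3A and SF3B complexes bring U2 to the branch point, and the tri-snRNP with the PRPF proteins then forms the catalytic centre. SR proteins bind exons and promote the use of nearby splice sites, and hnRNPs coat the transcript and often act against them. MYC-driven tumours are known to place a high demand on this machinery.

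Values are the deposited RMA expression values, taken as log2, so a difference of 1 is 2-fold. The background floor was 6.17, the 95th percentile of the mean values of 1394 odorant and pheromone receptor genes, and a gene with a 4-tumour mean above it was called detected. Probe sets differ in how brightly they report a transcript, so levels of different genes are not ranked against each other. The arrays differed in the offset of all detected genes, with a median deviation from each gene's own mean of 0.12, 0.044, -0.085 and -0.082 in tumours 1 to 4. A relative value below is a gene's deviation from its own 4-tumour mean minus that offset. Orders of the tumours and flatness below refer to deposited values unless relative values are named, and deposited values include the offset, which by itself sets tumours 1 and 2 above 3 and 4. Since a relative value is centred on the gene's mean, a high relative value in 1 tumour requires lower ones elsewhere.

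Marker genes were checked in the same arrays. Sympathoadrenal markers were detected in 9 of 9 measured genes and proliferation genes in 11 of 11, against 6 of 10 for macrophages, 5 of 7 for fibroblasts, 2 of 6 for endothelium and 1 of 4 for Schwann cells. Markers of skeletal muscle (0 of 8), adrenal cortex (0 of 5), T and NK cells (0 of 6) and B cells (0 of 3) were not detected, so the labelled muscle gave no signal above this floor. Stat6 lay below the floor in all 4 tumours, between 5.75 and 5.92, but whether its probe set covers the deleted exons is not known here. Tumour 4 differed from the others in sex-linked transcripts, with Xist at 10.13 against 3.89 to 3.95 and the Y-linked Eif2s3y at 3.90 against 7.47 to 7.89. Other differences of tumour 4 cannot be told apart from this one. Of the 75 genes 1 lies on the X chromosome, Hnrnph2, and none on Y. It measured 7.64, 7.48, 7.46 and 7.35 in tumours 1 to 4.

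Nearly the whole splicing apparatus was detected. Of the 75 genes 72 had a mean above the floor, where 40.5% of all genes did. Their means ran from 6.48 for Lsm11 to 11.74 for Hnrnpk. The 3 genes below the floor were Lsm5, Sf3b4 and Hnrnpa1l2-ps2. Lsm5, a subunit of the U6 ring, measured 4.80, 4.79, 4.95 and 4.48 in tumours 1 to 4. Sf3b4, a subunit of the branch point complex, measured 3.83, 3.94, 3.56 and 3.54, below the median of the receptor genes, 4.01, in every tumour. The other subunits of both complexes were detected, and a dim probe set is not shown to mean a missing transcript. Hnrnpa1l2-ps2, whose symbol marks it as a pseudogene, measured 3.41, 3.13, 3.25 and 3.42. Genes whose symbols fit but whose probe sets name several genes, among them Hnrnpa1, Hnrnph3, Snrpa, Snrpf and Snrpn, were not analysed here.

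**Figure D1:**
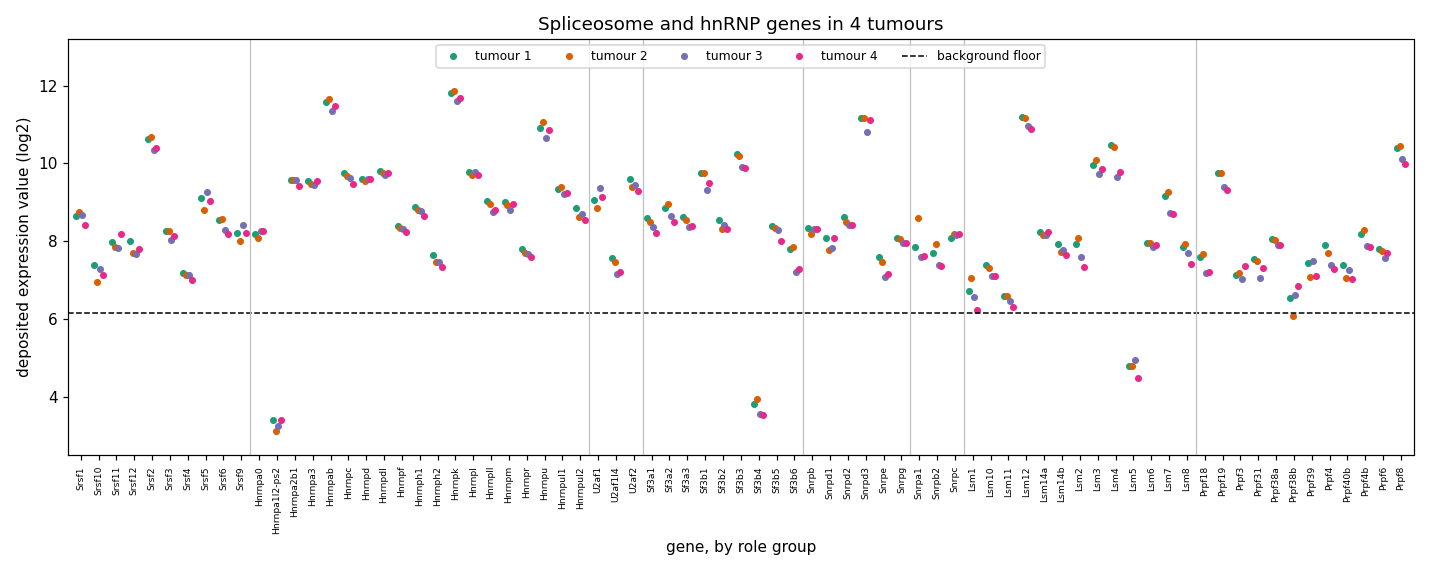
Deposited log2 expression values (y axis) of the 75 genes (x axis, in role groups separated by vertical lines), with 1 point per tumour, and the background floor at 6.17 (dashed). All genes except Hnrnpa1l2-ps2, Sf3b4 and Lsm5 have a mean above the floor, and the 4 points of most genes lie close together; points of different genes come from different probe sets and are not to be ranked.

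These genes varied little between tumours. The arrays read whole tumour pieces, in which fewer cells of a type and less RNA per cell cannot be told apart. The range, the highest minus the lowest of the 4 tumours, had a median of 0.33 log2 units (1.26-fold) over the 72 detected genes, against 0.41 (1.33-fold) over all 8989 detected genes. It reached 0.5 log2 units (1.41-fold) in 11 of the 72 genes (15.3%), where 35.1% of all detected genes reached it. No gene reached 1 log2 unit, where 4.26% of all detected genes did, though Snrpa1 came closest with 0.999, and Snrpe at 0.4998 and Lsm8 at 0.503 lay just outside and just inside the smaller limit. The contrast was alike among brighter genes: of the 58 genes with a mean at or above the detected median, 9 (15.5%) reached 0.5, against 34.1% of all such genes. Tumour 2 held much of the spread. Without it, 4 of the 72 genes reached 0.5 (5.56%), against 27.0% of all detected genes. With the array offsets removed, 10 of the 72 genes had a range of at least 0.5, where 27.1% of all detected genes did. The median relative values of the 72 genes were -0.0096, 0.017, 0.0033 and -0.014 in tumours 1 to 4. They depend on which genes set the array offset: with the offset taken over all genes and no floor, they were 0.101, 0.060, -0.058 and -0.122.

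**Figure D2:**
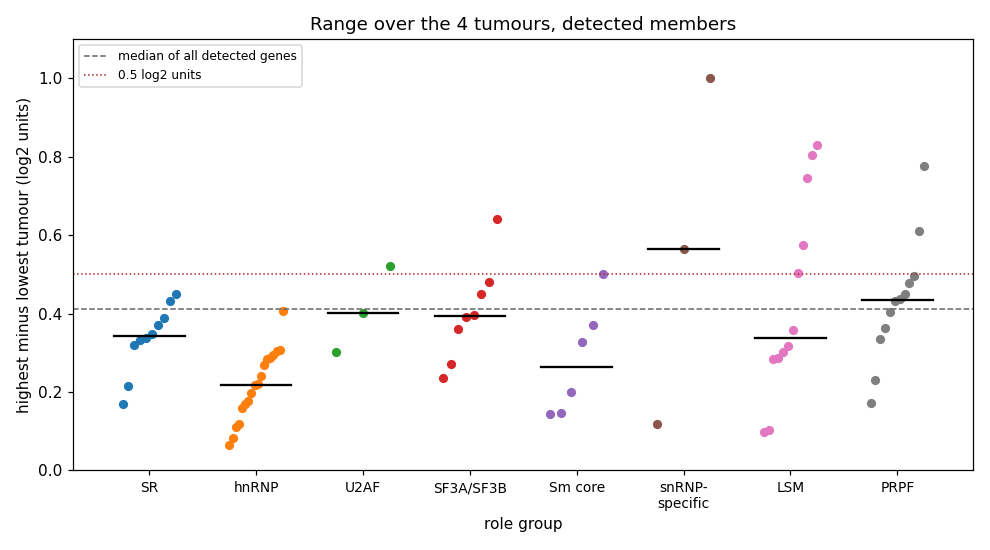
Range over the 4 tumours in log2 units (y axis) for each of the 72 detected genes, in 8 role groups (x axis), with black bars at the group medians, the median of all detected genes (dashed, 0.41) and 0.5 log2 units (dotted). No hnRNP gene passes 0.5, and the points above it are mostly LSM and snRNP-specific genes.

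The hnRNP genes were the flattest group. All 18 detected members stayed under a range of 0.5, with a median of 0.22 (1.16-fold) and a widest range of 0.41. Hnrnpd, also called AUF1, a regulator of mRNA decay, measured 9.60, 9.54, 9.60 and 9.60 in tumours 1 to 4, 9.58 ± 0.031 (SD, n = 4). Hnrnpa2b1, which binds pre-mRNA and sorts mRNA for transport, measured 9.57, 9.56 and 9.58 in tumours 1 to 3 and 9.42 in tumour 4. For Hnrnpd tumour 2 was the lowest and for Hnrnpa2b1 tumour 4, while the other 3 arrays almost coincided. This holds for the deposited values only: in relative values, at -0.11, -0.090, 0.10 and 0.10 for Hnrnpd and -0.083, -0.016, 0.13 and -0.032 for Hnrnpa2b1, both were lowest in tumour 1. Hnrnpk, a poly(C)-binding protein that acts in transcription and splicing, measured 11.82, 11.86, 11.59 and 11.69. Hnrnpab measured 11.58, 11.66, 11.35 and 11.47. Hnrnpu, a nuclear scaffold protein and the widest of the group, measured 10.92, 11.05, 10.65 and 10.85. By the brightest probe set of each, Hnrnpk, Hnrnpab and Hnrnpu had their lowest value in tumour 3 and their highest in tumour 2. This held as deposited and in relative values. Hnrnpul2, a relative of Hnrnpu, was highest in tumour 1 (8.87) and lowest in tumour 4 (8.56) as deposited, but highest in tumour 3 (0.090) and lowest in tumour 2 (-0.10) in relative values.

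Among the hnRNP genes with several probe sets, the dimmer ones did not always repeat the order of the brightest. A second Hnrnpu probe set measured 8.79, 8.50, 8.91 and 8.50, with its highest value in tumour 3, where the brighter set had its lowest. The dimmer Hnrnpk probe sets measured 9.34, 9.28, 9.40 and 9.21, highest in tumour 3, and 6.79, 6.82, 6.65 and 6.96, highest in tumour 4. The second Hnrnph2 probe set ran from 5.79 in tumour 4 to 6.63 in tumour 1, the same highest and lowest tumour as the brighter set over a wider range. In all, 13 of the 75 genes had more than 1 probe set, and 9 of the 17 dimmer sets passed the floor. Many hnRNP, Sm and LSM genes have processed pseudogenes and their transcripts have several splice forms, so signal shared with related sequences or variants is uncertain throughout.

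The SR proteins split over the tumours. All 10 were detected and none had a range of 0.5, though Srsf5 (0.58) and Srsf9 (0.52) passed it in relative values. Srsf2, which binds exonic enhancers, measured 10.63, 10.68, 10.34 and 10.39 in tumours 1 to 4, so tumours 1 and 2 lay above tumours 3 and 4. Srsf5 was arranged otherwise, at 9.11, 8.81, 9.26 and 9.03. Srsf9 measured 8.22, 8.02, 8.41 and 8.20, and Srsf10, an SR protein that represses splicing when dephosphorylated, 7.39, 6.95, 7.28 and 7.14. All 3 of these had their lowest value in tumour 2. Srsf5 and Srsf9 had their highest in tumour 3, and Srsf10 in tumour 1 as deposited and in tumour 3 once the array offsets were removed. Srsf4 was the flattest SR gene as deposited, from 7.01 in tumour 4 to 7.18 in tumour 1, and Srsf3 in relative values, with a range of 0.094 against 0.17 for Srsf4. Srsf1, the prototype of the family, ran from 8.42 in tumour 4 to 8.74 in tumour 2, and Srsf3 from 8.04 in tumour 3 to 8.26 in tumour 1.

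The U2AF heterodimer recognises the end of the intron, its large subunit on the polypyrimidine tract and its small subunit on the acceptor AG. U2af1, the small subunit, measured 9.06, 8.86, 9.38 and 9.14 in tumours 1 to 4, a range of 0.52. Its order over the tumours in relative values, lowest in tumour 2 at -0.29 and highest in tumour 3 at 0.36, was that of Srsf5 (-0.29 and 0.29) and Srsf9 (-0.24 and 0.28). U2af2, the large subunit, measured 9.59, 9.39, 9.44 and 9.29, and U2af1l4, a paralogue of the small one, 7.56, 7.46, 7.16 and 7.20. In relative values U2af2 was also lowest in tumour 2 (-0.080) and highest in tumour 3 (0.096), over a smaller range than U2af1. U2af1l4 was highest in tumour 1 (0.088) and lowest in tumour 3 (-0.10).

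Branch point recognition by SF3A and SF3B was measured through 9 genes, of which 8 were detected. In 7 of these 8 the relative value in tumour 2 was above 0, where the centring on the median sets the share of all detected genes at 50%. Sf3b6, the subunit that contacts the branch point region, was the widest, at 7.79, 7.85, 7.21 and 7.29, with tumours 1 and 2 more than 0.5 above tumour 3. Sf3b1, the largest subunit and the one mutated in several blood cancers, measured 9.75, 9.74, 9.30 and 9.49. Sf3b3 measured 10.25, 10.19, 9.90 and 9.89, and Sf3a2 8.85, 8.97, 8.66 and 8.49. In Sf3b6, Sf3b1, Sf3b3 and Sf3a2 tumours 1 and 2 lay above tumours 3 and 4 as deposited. In relative values this order held for Sf3b6, Sf3b1 and Sf3b3 but not for Sf3a2, at -0.014, 0.18, 0.0035 and -0.17. Sf3b2 was the flattest as deposited, between 8.31 in tumour 2 and 8.55 in tumour 1, and Sf3a3 in relative values, with a range of 0.063 against 0.23 for Sf3b2.

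The Sm proteins form the ring shared by U1, U2, U4 and U5. All 6 measured members were detected, with a median range of 0.26, and none reached 0.5. Snrpd3 measured 11.17, 11.17, 10.80 and 11.11, with tumour 3 below the rest. Snrpe measured 7.59, 7.47, 7.09 and 7.16, and Snrpg was nearly constant, from 7.95 to 8.09. Snrpd1 measured 8.08, 7.76, 7.82 and 8.09, highest in tumour 4, but its second probe set gave 6.77, 6.60, 6.36 and 5.72, lowest in tumour 4, so the order of this gene rests on the choice of probe set.

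The proteins specific to single snRNPs held the widest gene as deposited, Snrpa1; in relative values it came second, with a range of 0.87 against 0.90 for Prpf38b. Snrpa1, the U2 protein A′, measured 7.86, 8.59, 7.59 and 7.61 in tumours 1 to 4, 7.91 ± 0.47 (SD, n = 4). Tumour 2 stood 0.72 above the next and the other 3 lay within 0.27 of each other. Snrpb2, the U2 protein B″ that binds beside it on U2 snRNA, measured 7.71, 7.94, 7.40 and 7.37, with the same highest tumour. Snrpc, a U1 protein, was flat at 8.07, 8.18, 8.15 and 8.19 as deposited, with a relative range of 0.32 and its lowest relative value in tumour 1 (-0.20).

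LSM proteins fall into ring subunits and others. Lsm2 to Lsm8 form the ring on U6, and in the cytoplasm Lsm1 takes the place of Lsm8 in a ring that promotes mRNA decay. Of these 8 subunits 7 were detected, and 5 of the 7 (71.4%) had a range of at least 0.5, where 35.1% of all detected genes did, in a subset named after its values were seen. Without tumour 2 the count was 2 of 7, where 27.0% of all detected genes reached 0.5. Without tumour 4 it was 2 of 7 (22.7% of all detected genes). It was 5 of 7 without tumour 1 (25.3%) and 5 of 7 without tumour 3 (25.7%). In relative values 3 of 7 reached 0.5, where 27.1% of all detected genes did. Lsm1 measured 6.72, 7.06, 6.56 and 6.23 in tumours 1 to 4. Lsm2 measured 7.92, 8.07, 7.60 and 7.33. Lsm4 measured 10.47, 10.42, 9.66 and 9.79. In Lsm1 and Lsm2 tumour 2 was highest and tumour 4 lowest, and in Lsm4 tumours 1 and 2 lay together, at least 0.63 above tumours 3 and 4. Lsm7 measured 9.17, 9.27, 8.72 and 8.70, and its second probe set repeated this with 9.08, 9.19, 8.70 and 8.46. Lsm8, the nuclear subunit, measured 7.85, 7.92, 7.70 and 7.42, and Lsm3 9.96, 10.08, 9.72 and 9.84. Lsm6 did not take part, with 7.85 to 7.95. The relative value in tumour 2 was above 0 in 6 of the 7, against 50% of all detected genes, with a median of 0.26 ± 0.13 (SD over 7 genes), and the median in tumour 4 was -0.21 ± 0.16.

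The other LSM proteins stayed within 0.32 in all 5 cases. Lsm10 and Lsm11 replace Sm subunits in the U7 snRNP of histone mRNA processing and measured 7.10 to 7.38 and 6.31 to 6.59. Lsm12 measured 11.20, 11.18, 10.95 and 10.89, and Lsm14a, an mRNA-repressing protein of P-bodies, 8.25, 8.17, 8.15 and 8.23.

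All 12 PRPF genes were detected, and 2 had a range of at least 0.5. Prpf8, the scaffold of the catalytic centre, measured 10.40, 10.44, 10.11 and 10.00 in tumours 1 to 4. Prpf4, of the U4/U6 particle, measured 7.90, 7.71, 7.38 and 7.29. Prpf31, also of that particle, measured 7.55, 7.49, 7.06 and 7.31. These genes had their 2 higher values in tumours 1 and 2. Prpf38b ran the other way, at 6.55, 6.07, 6.61 and 6.85, with tumour 2 lowest and under the floor. Its paralogue Prpf38a was flat, between 7.89 and 8.07.

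Across the role groups, the genes that stood out in tumour 2 went in both directions. With a limit of 0.2 (1.15-fold) set after the values were seen, 8 of the 72 genes lay at or above it in tumour 2, where 12.3% of all detected genes did, and 7 at or below -0.2, where 12.7% did. Both counts are near those shares. Genes at or above 0.2 in tumour 2 and under 0 in tumour 3 numbered 7, Lsm2, Lsm4, Lsm7, Prpf18, Sf3b6, Snrpa1 and Snrpb2, where 10.5% of all detected genes did the same. Genes at or below -0.2 in tumour 2 and above 0 in tumour 3 numbered 6, Prpf38b, Prpf39, Srsf5, Srsf9, Srsf10 and U2af1, where 10.2% did. The first set holds LSM and U2 particle genes and the step factor Prpf18, and the second holds SR proteins, the small U2AF subunit, Prpf39, a partner of U1, and Prpf38b, a pre-mRNA processing factor. With no array offset subtracted the first set numbered 12, and the share of all detected genes in that setting was not computed. Proliferation markers, like the first set, were higher in tumour 2 and lower in tumour 3, the values by which that set was picked. Their median relative values were 0.049, 0.22, -0.12 and -0.15 in tumours 1 to 4, with a mean level between 9.10 and 9.65. In tumour 2, 11 of 11 lay above 0, against 50% of all detected genes. Sympathoadrenal markers, like the second set, were lower in tumour 2, a value by which that set was picked. Their median relative values were -0.072, -0.23, 0.015 and 0.26, with a mean level between 9.28 and 9.70. Of these markers 9 of 9 lay below 0 in tumour 2 and 9 of 9 above 0 in tumour 4. The centring sets each of these shares at 50% of all detected genes. The 6 detected macrophage markers were lower in tumour 3, with a median of -0.46, and the mean level of all 10 lay between 6.70 and 7.19. Of those under the floor, Aif1 (0.13) and Fcgr3 (0.19) lay above 0 in tumour 3, and Adgre1 (-0.18) and Mrc1 (-0.14) below. The 5 detected fibroblast markers were higher in tumour 1, with a median of 0.56, and the mean level of all 7 lay between 6.04 and 6.996. Of those under the floor, Lum was at 0.11 in tumour 1 and Pdgfra at -0.29. The part of any of these in the splicing genes' values was not tested.

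**Figure D3:**
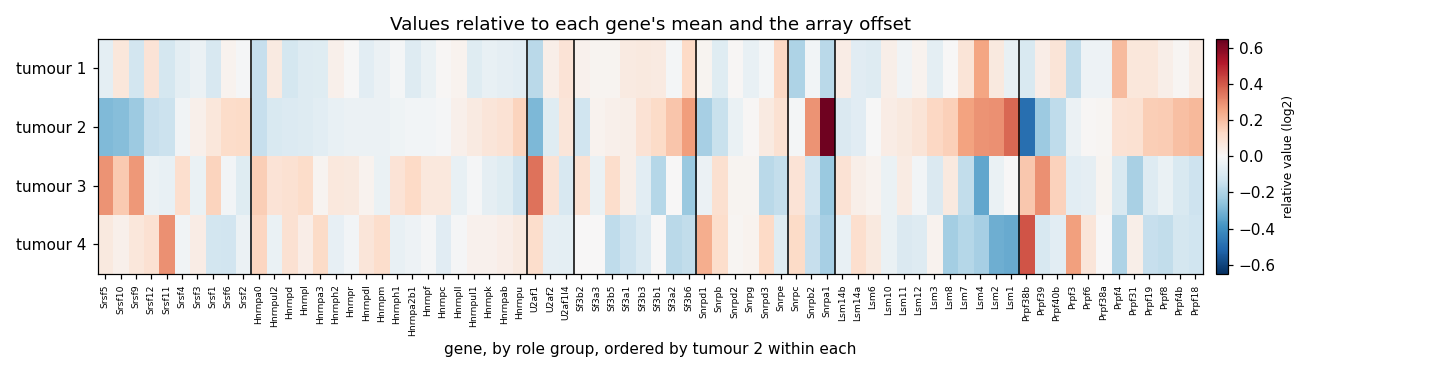
Relative log2 values of the 72 detected genes (columns, by role group and ordered by tumour 2 within each) in the 4 tumours (rows), red above and blue below the gene's own mean after removal of the array offset. The hnRNP block is pale in all rows, while tumour 2 shows red for Snrpa1 and the LSM ring subunits other than Lsm6, and blue for Prpf38b, U2af1, Srsf5, Srsf9 and Srsf10.

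**Figure D4:**
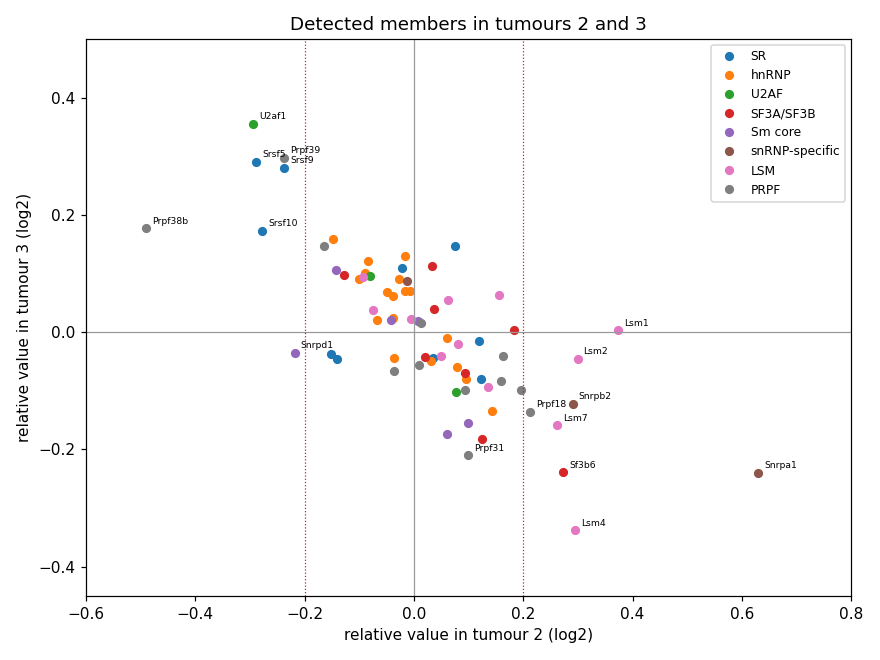
Relative log2 value in tumour 2 (x axis) against that in tumour 3 (y axis) for the 72 detected genes, coloured by role group and named where either value reaches 0.2 in size (dotted lines mark this on the x axis). Lsm4, Sf3b6 and Snrpa1 lie at the lower right and U2af1, Srsf5, Srsf9 and Prpf39 at the upper left; both axes share each gene's mean, which itself tilts the cloud.

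Tumour by tumour, 28 of the 72 genes had their highest relative value in tumour 2, where 29.2% of all detected genes did, 24 in tumour 3 (24.3% of all), 16 in tumour 4 (28.3%) and 4 in tumour 1 (18.2%). The lowest relative value fell in tumour 1 for 12 of the 72 genes (21.7% of all detected genes), in tumour 2 for 20 (25.2%), in tumour 3 for 19 (24.1%) and in tumour 4 for 21 (28.9%). Of the LSM genes 9 of 12 were highest in tumour 2, and of the hnRNP genes 10 of 18 in tumour 3. These counts depend on the offset: with none subtracted, 39 of the 72 were highest in tumour 1. The share of all detected genes in that setting was not computed, and the tumour 1 offset of 0.12 itself favours tumour 1 among them. The median absolute difference in relative value ran from 0.087 for tumours 1 and 2 to 0.18 for tumours 2 and 3, against 0.13 and 0.19 over all detected genes. Relative values of tumours 2 and 3 lay at least 0.5 apart in 8 of the 72 genes (11.1%), the same share as the 11.1% of all detected genes. For tumours 2 and 4 this was 5 of 72 (14.2% of all detected genes), for tumours 1 and 3 it was 2 (9.8%), for tumours 1 and 2 it was 1 (4.48%), for tumours 1 and 4 it was 1 (11.2%), and for tumours 3 and 4 it was 0 (7.73%).

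Promoter sequences of some genes of these patterns are shown because members that stood high or low together may be compared in them. They are not the most extreme genes in tumour 2: Prpf38b (-0.49) and Lsm2 (0.30), which have windows, are left out. Windows run from 250 bases before to 50 after a RefSeq start site of GRCm38.p6, and 64 of the 75 genes had at least 1. A set of 3 motifs known from growth genes was searched on both strands: CACGTG, the E-box bound by MYC and MAX, CCGGAAG, a core bound by ETS factors, and TGACGTCA, bound by CREB and ATF factors. None contains another. Capitals mark every match on either strand, and each sequence is written 5′ to 3′ on the gene's own strand.
Snrpa1 (chr7:66060086-66060385, plus strand): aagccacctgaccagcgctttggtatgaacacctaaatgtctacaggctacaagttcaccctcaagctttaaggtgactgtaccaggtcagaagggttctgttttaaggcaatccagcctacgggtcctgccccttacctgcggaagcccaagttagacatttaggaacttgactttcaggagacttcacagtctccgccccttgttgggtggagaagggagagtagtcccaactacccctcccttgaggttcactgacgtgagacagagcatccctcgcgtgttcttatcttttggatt
Snrpb2 (chr2:143062819-143063118, plus strand): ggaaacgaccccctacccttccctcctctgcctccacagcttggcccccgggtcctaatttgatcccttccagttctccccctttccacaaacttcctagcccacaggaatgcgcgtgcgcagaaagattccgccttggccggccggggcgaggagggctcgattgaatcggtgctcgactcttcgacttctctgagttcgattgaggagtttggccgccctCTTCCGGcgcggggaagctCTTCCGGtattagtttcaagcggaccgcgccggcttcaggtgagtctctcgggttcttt
Sf3b6 (chr12:4817358-4817657, plus strand): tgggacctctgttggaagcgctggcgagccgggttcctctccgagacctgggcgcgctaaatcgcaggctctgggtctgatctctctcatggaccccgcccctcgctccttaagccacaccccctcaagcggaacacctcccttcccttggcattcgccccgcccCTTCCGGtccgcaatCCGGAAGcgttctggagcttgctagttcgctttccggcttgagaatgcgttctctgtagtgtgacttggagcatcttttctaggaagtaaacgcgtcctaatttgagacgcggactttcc
Srsf5 (chr12:80945249-80945548, plus strand): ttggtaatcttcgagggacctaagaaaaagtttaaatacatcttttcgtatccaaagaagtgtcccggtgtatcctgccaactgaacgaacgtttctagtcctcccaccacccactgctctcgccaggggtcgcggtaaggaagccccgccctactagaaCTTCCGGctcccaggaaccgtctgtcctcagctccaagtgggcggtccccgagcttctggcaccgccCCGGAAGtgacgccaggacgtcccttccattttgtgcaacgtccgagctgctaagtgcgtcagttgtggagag
Prpf39 (chr12:65036084-65036383, plus strand): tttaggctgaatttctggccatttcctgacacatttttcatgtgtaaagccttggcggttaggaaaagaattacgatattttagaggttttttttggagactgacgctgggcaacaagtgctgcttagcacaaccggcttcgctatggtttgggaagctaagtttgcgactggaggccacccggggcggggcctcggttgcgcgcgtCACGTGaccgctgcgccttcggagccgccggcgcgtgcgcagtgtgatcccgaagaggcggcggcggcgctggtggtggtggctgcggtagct
Hnrnpd (chr5:99978889-99979188, minus strand): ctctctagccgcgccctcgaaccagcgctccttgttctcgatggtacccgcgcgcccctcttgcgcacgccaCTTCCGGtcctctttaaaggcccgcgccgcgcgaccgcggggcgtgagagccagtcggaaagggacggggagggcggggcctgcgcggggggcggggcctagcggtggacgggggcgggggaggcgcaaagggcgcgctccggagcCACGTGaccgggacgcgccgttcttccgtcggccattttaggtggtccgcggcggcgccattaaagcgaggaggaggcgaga

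The first 3 are high in tumour 2, Srsf5 and Prpf39 are low there, and Hnrnpd is the flattest gene as deposited, though not in relative values, where its range is 0.21 against 0.047 for Prpf38a. Snrpb2 and Sf3b6 each held 2 CCGGAAG matches, but so did Srsf5, and Snrpa1 held none of the motifs. CACGTG stood in Prpf39 and in Hnrnpd, which also held 1 CCGGAAG. Prpf38b, U2af1, Srsf9 and Srsf10, also low in tumour 2 but not shown, held none of the motifs. Lsm2 and Lsm7, high in tumour 2 and not shown, held neither CCGGAAG nor CACGTG, and 1 window of Lsm2 held TGACGTCA. In the set high in tumour 2 and under 0 in tumour 3, 2 of 5 genes with a window held CCGGAAG. In the opposite set 1 of 6 did. CACGTG was held by 0 and 1 of these genes, and TGACGTCA by 1 and 0. Over all windows of the 75 genes, CCGGAAG was found in 25 of 83 (30.1%), against 18.0% of the windows of detected genes and 8.86% of all windows. CACGTG was found in 9 of 83 (10.8%), against 10.3% for detected genes and 7.15% for all, and TGACGTCA in 2 (2.41%), against 3.25% and 1.79%. Several genes have more than 1 window, and these can overlap. A match is a string of letters in the window and not a bound site.

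The rest of the splicing machinery was measured through 107 listed genes that the symbol families leave out, of which 94 had a probe set of their own and 85 were detected. Of these 85, 27 (31.8%) had a range of at least 0.5, near the 35.1% of all detected genes, and 0 reached 1. Without tumour 3 the count was 17, where 25.7% of all detected genes reached 0.5. The count also fell without each of the other tumours, as given at the end. By role, 1 of 14 SR-related proteins and kinases reached 0.5, 1 of 12 hnRNP proteins under other symbols, 6 of 23 further U1, U2 and tri-snRNP proteins, 8 of 19 factors of the Prp19 complex and the catalytic steps, 1 of 2 exon junction proteins, 5 of 7 genes of the minor spliceosome and 5 of 8 snRNP assembly genes.

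As deposited, with the array offset included, the widest gene was highest in tumour 2 in 5 of these 7 lists. In relative values the widest minor spliceosome gene was Rnu11, at 0.88 against 0.82 for Zcrb1, and Rnu11 was highest in tumour 4. Among hnRNP proteins under other symbols it was Cirbp, at 0.40 against 0.38 for Rbmx, and Cirbp was highest in tumour 3. Of all detected genes, 29.2% had their highest relative value in tumour 2, and the share for deposited values was not computed. Zcrb1, of the minor spliceosome, measured 10.14, 10.48, 9.53 and 9.65 in tumours 1 to 4. Usp39, needed for tri-snRNP assembly, measured 8.79, 8.99, 8.38 and 8.11. Rnps1, which links SR proteins and the exon junction complex, measured 9.14, 9.22, 8.40 and 8.64. In each of these genes tumours 1 and 2 lay above tumours 3 and 4. Bud31, a factor of the activated spliceosome, measured 8.70, 8.78, 8.06 and 8.41, and Prmt5, the methyltransferase that modifies Sm proteins for ring assembly, 9.94, 10.01, 9.36 and 9.25. Rbmx, an hnRNP of the X chromosome also called hnRNP G, measured 9.22, 8.94, 8.63 and 8.82. Eif4a3, the helicase core of the exon junction complex, was lowest in tumour 1, at 6.04 against 6.59 to 6.73.

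In relative values 8 of the 14 SR-related proteins and kinases and 6 of the 23 further U1, U2 and tri-snRNP proteins were lowest in tumour 2, where 25.2% of all detected genes were, and 2 and 9 were highest there. A few are given here, named after their values were seen. Snrnp70, the U1 protein that SR proteins contact, measured 9.32, 9.10, 9.45 and 9.30. Srpk2, a kinase of SR proteins, measured 8.35, 8.20, 8.61 and 8.21, and Luc7l2, a U1-associated protein, 8.77, 8.18, 8.54 and 8.60. Snrnp70, Srpk2 and Luc7l2 were lowest in tumour 2. Tumour 3 was the highest for Snrnp70 and Srpk2, and for Luc7l2 tumour 1 as deposited and tumour 4 in relative values. Srpk1, the other SR kinase of that name, went the other way, at 9.30, 9.44, 9.15 and 9.11, as did Rnps1 above, both highest in tumour 2. The proteins of the minor spliceosome shared no order over the tumours. Zcrb1 was highest in tumour 2, and Rnpc3 in tumour 4, at 8.12, 8.02, 7.96 and 8.40. Of its small nuclear RNAs, Rnu11 measured 10.25, 10.41, 10.82 and 10.92 and Rnu12 9.90, 9.73, 10.28 and 10.28, both higher in tumours 3 and 4. These RNAs are not polyadenylated, and the sources used here do not say how the labelling treats them.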

How the data were processed

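Total RNA of 4 tumours was hybridised to 1-colour arrays, 1 per tumour. The deposited table holds the authors' values, taken here as log2 (2.47 to 13.6; the log base is not stated), for 41345 probe sets. RMA and Partek are named in the submitters' processing notes, without versions; the sources used here give no build. Probe sets with 1 gene in the platform annotation (23521) were used, the brightest per gene, which gave 22180 genes, and symbols of the 75 members all matched RefSeq identifiers. With 1 group, no test was run: means, SDs and ranges over tumours are given beside the same shares of all detected genes. The members and lists were chosen with earlier results of these data known. Named genes were, per role group, the brightest, the 3 widest and the narrowest, those not detected, those with a range of 1 and those with 1 array far from the others; per further list, the widest. Others are named to complete a role group or as said. Floors, probe set rules, normalization, offsets and left-out arrays were varied. On simulated data only the recovery of a known shift of the members in 1 tumour was tested, not the range, order or detection counts. Python 3.11.15, numpy 2.4.6 and pandas 2.3.3 were used. The number of arrays limits the precision.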

Additional observations from a re-analysis of the deposited data

Results flagged for a closer look

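In 2 of the 72 detected genes, 1 array lay far from the other 3, by the gap to the nearest array divided by the whole range, set against Dixon's 95% critical value for groups of 4, which chance exceeds in about 1 in 20 groups. Over all detected genes 3.83% passed this limit. The ratio was 0.877 for Hnrnpd, lowest in tumour 2 within a range of 0.065 log2 units, and 0.890 for Hnrnpa2b1, lowest in tumour 4 within a range of 0.16. Both rest on the deposited values: with the array offsets removed, a step added after seeing the data, the ratios were 0.110 and 0.687, under the critical value, and tumour 1 was the lowest for both.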

How the results depend on the processing

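Without each tumour in turn, 72 genes were detected; raising the floor to the receptors' 99th percentile left 68. Relative shifts of the genes were at most 0.12 in size in all 52 alternative values. The counts of highest and lowest genes depend on the array offset, which the floor also sets because the offset is taken over detected genes. With the floor at the receptor median, 30 genes were highest and 1 lowest in tumour 1, 11 lowest in tumour 2, 12 highest in tumour 3, and 5 highest and 43 lowest in tumour 4. With no floor these counts were 35, 1, 12, 10, 3 and 42. With no offset subtracted they were 39 and 1 in tumour 1, 12 lowest in tumour 2, 6 highest in tumour 3 and 6 highest in tumour 4. Genes at or above 0.2 in tumour 2 and under 0 in tumour 3, counted after seeing the data, numbered 12, 13 and 12 in these settings. For none of these counts was the share of all detected genes computed in the same setting. Leaving out 1 tumour gave 4 to 10 genes with a range of at least 0.5, 3 to 10 with a relative range of at least 0.5, and 17 to 21 in the wider splicing lists. It gave 9 to 23 highest and 18 to 22 lowest in tumour 1, 21 to 30 lowest in tumour 3, and 16 to 25 highest and 23 to 32 lowest in tumour 4; fewer arrays by themselves give each remaining one more. Of 391 alternative ranges of named genes, 26 moved by more than the gene's SD. No paired analysis was possible because there is 1 group. Only 4 arrays and no detection calls limit what low genes can show.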
